A study of Mus musculus with 18 samples.

Results

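The Dectin-2 cluster is a run of neighbouring C-type lectin genes on mouse chromosome 6, and 8 of its genes are described here: Clec4a1, Clec4a2, Clec4a3, Clec4b1, Clec4b2, Clec4d, Clec4e and Clec4n. Each was measured by a single probe set annotated to its symbol alone, among 19938 genes with such a probe set. All 8 passed the filter on low values, which left 13387 genes tested, and Clec4b1 passed it through its monocyte arrays alone. The genes were chosen by their place in the cluster and selected on the measured changes between deficient and control cells, in which single members differed in one cell type and not alike in the other. Those differences are given as descriptions, and where the calls of a model fitted over all genes are counted for these genes, the counts restate that choice and nothing is read from them. Expression was measured on 18 Affymetrix Mouse Gene 1.0 ST arrays of Ly-6C(hi) monocytes and neutrophils sorted by flow cytometry from C57BL/6 mouse bone marrow. For each cell type, 4 arrays came from poly(I:C)-treated Zeb2(fl/fl);Mx1-Cre(tg) mice, labelled Zeb2-deficient, 4 from poly(I:C)-treated Zeb2(fl/fl) controls and 1 from an untreated Zeb2(fl/fl) control. All mice carried floxed Zeb2, and the treated mice of both genotypes received 2 intraperitoneal doses of 150 µg poly(I:C) within 48 h, 3 weeks before the marrow was taken. Zeb2 encodes a zinc-finger repressor, and Mx1-Cre is a recombinase that interferon, here induced by poly(I:C), switches on in many cell types besides these. Since no control carried Cre, the recombinase itself and the loss of Zeb2 cannot be told apart as sources of a difference. Nothing in the labels ties each array to an animal of its own, and p-values therefore measure only the scatter among these samples, part or all of which may be technical.

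The lectins of this cluster are type II membrane receptors of myeloid cells that bind sugars and glycolipids of microbes or damaged cells through an extracellular C-type lectin domain. Clec4n (Dectin-2), Clec4e (Mincle), Clec4d (MCL) and the Dcar-type receptors Clec4b1 and Clec4b2 have short cytoplasmic tails and are known for signalling through the adaptor Fcer1g, the kinase Syk and the Card9 complex to induce cytokines. Clec4a2 (Dcir) carries an inhibitory tyrosine motif in its tail that recruits phosphatases. Clec4a1 and Clec4a3 are close relatives of Clec4a2 by sequence. In gene order, the RefSeq table of GRCm38.p6 lists Clec4a1, Clec4a3, Clec4a4, Clec4b1, Clec4a2, Clec4b2, Clec4n, Clec4d and Clec4e as an unbroken run, flanked by Necap1 and by Vmn2r19.

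RefSeq promoter windows of GRCm38.p6, from 250 bases before to 50 after the start of a gene, were found for 7 of the 8 members, all but Clec4n. The first pair shown is Clec4b1 and Clec4b2, near relatives of which Clec4b2 alone was far higher in deficient monocytes. Clec4b1 lies at chr6:123049712-123050011 and Clec4b2 at chr6:123172773-123173072, both on the plus strand. Each is written 5′ to 3′, and capitals mark GAGGAA or its reverse complement TTCCTC, the core recognised by the myeloid factor PU.1.
Clec4b1: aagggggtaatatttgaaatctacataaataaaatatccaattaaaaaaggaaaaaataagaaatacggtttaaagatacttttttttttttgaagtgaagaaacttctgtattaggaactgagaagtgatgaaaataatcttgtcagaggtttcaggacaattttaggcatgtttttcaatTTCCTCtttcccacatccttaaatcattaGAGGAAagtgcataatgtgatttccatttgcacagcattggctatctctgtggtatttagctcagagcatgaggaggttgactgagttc
Clec4b2: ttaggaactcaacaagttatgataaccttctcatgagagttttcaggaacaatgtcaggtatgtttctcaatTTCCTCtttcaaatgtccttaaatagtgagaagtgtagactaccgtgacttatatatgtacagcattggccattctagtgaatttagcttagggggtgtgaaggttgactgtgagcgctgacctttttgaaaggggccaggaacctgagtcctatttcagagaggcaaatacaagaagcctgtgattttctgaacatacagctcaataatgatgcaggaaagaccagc
The longest run these 2 windows shared was the 15 bases tcaatttcctctttc, which holds the PU.1 core.

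The next pair is Clec4d and Clec4e, whose levels were both high in neutrophils. Clec4d lies at chr6:123261857-123262156 on the plus strand and Clec4e at chr6:123289822-123290121 on the minus strand.
Clec4d: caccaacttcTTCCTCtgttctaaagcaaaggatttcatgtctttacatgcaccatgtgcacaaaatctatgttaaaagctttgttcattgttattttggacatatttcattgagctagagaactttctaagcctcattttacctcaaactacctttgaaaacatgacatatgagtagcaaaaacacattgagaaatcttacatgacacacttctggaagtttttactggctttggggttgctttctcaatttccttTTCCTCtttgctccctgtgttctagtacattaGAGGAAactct
Clec4e: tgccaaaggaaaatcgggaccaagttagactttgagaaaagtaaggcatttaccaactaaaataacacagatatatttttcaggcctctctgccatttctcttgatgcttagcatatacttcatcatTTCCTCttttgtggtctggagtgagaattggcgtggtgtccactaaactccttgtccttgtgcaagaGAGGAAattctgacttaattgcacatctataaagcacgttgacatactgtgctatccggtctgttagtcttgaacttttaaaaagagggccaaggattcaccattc
Clec4b2 and Clec4d shared a run of 14 bases, tttctcaatttcct.

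The last pair is Clec4a1 and Clec4a3, whose levels were high in monocytes and moved together between the deficient monocyte arrays. Clec4a1 lies at chr6:122921598-122921897 and Clec4a3 at chr6:122952265-122952564, both on the plus strand.
Clec4a1: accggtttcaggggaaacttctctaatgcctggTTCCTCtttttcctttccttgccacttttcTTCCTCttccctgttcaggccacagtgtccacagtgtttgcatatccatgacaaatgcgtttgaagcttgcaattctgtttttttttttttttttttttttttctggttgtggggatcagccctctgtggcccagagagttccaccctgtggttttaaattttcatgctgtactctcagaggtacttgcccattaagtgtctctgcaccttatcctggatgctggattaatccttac
Clec4a3: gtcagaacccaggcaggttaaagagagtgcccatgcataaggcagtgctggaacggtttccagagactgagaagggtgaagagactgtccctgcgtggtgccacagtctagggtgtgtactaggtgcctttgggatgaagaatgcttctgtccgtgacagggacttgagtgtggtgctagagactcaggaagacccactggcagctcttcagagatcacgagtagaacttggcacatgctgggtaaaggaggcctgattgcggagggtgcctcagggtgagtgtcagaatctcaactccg
In all, 6 motifs were searched on both strands after these sequences had been seen. GAGGAA occurred in 5 of the 7 member windows and in 28.3% of all 32851 windows of the same length. CACCTG, the E-box bound by Zeb factors, occurred in 0 of the 7 and in 20.2% of all windows, and CACCT, which lies within it, occurred in 2, those of Clec4a1 and Clec4a3, and in 51.9%. TTCNNNGAA, a STAT site, occurred in Clec4a2 (8.3% of all windows), and TTGCNNAA, a C/EBP site, in Clec4e (10.8%). The interferon response core (ISRE) occurred in Clec4b1 and Clec4d (3.44%) and overlapped a PU.1 core in both. These are matches of letters and were not tested as sites.

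Values are log2 intensities, and a difference of 1 is a 2-fold difference in intensity. Levels are compared only within a gene, because probe sets differ in brightness. A gene was called at a Benjamini-Hochberg adjusted p under 0.05 over the 13387 genes, from limma, a linear model with a spread shared across genes. A value below the 40th percentile of its array, which lay between 4.28 and 4.5, counts as not above background. The treated arrays were split by the sign of the first principal component of deviations from the group means, which held 35.4% of their variance. Only genes with a mean above the median of all values entered it. Set A holds deficient replicates 1 and 2 and control replicates 1 and 2 of both cell types. Set B holds deficient replicates 3 and 4 and control replicates 4 and 5.

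The sorted populations differed between genotypes in their marker genes. The mean over 9 of 9 neutrophil markers was 10.15 to 11.01 across deficient monocyte arrays and 7.25 to 8.8 across control monocyte arrays, and 9 of 9 lay above background on every deficient array. Among them the granulocyte surface marker Ly6g averaged 9.09 ± 0.53 in deficient and 3.90 ± 0.42 in control monocytes (SD, n = 4 each). The mean over 5 of 5 promyelocyte markers was 8.87 to 11.16 in deficient and 6.50 to 9.05 in control monocytes. The mean over 6 of 7 Ly-6C(hi) monocyte markers was 9.32 to 10.57 in deficient and 10.61 to 10.82 in control monocytes, and all 6 lay above background on every array. The mean over 6 of 6 macrophage markers was 5.06 to 5.61 in deficient and 4.90 to 5.04 in control monocytes, with Mertk not above background on any of them. Within that list the adhesion molecule Vcam1 averaged 7.46 in deficient and 5.03 in control monocytes (change 2.43, limma adjusted p = 0.00817). Adgre1 went the other way, at 7.93 in deficient and 8.62 in control monocytes (change -0.69, limma adjusted p = 0.0695). C1qa (0.03), C1qb (0.28) and Timd4 (0.29) were not called. The mean over 6 of 6 dendritic cell markers was 5.43 to 5.58 in deficient and 5.597 to 5.95 in control monocytes, with Xcr1 and Siglech not above background on any of them. The cytokine receptor Flt3 averaged 5.43 in deficient and 6.30 in control monocytes (change -0.88, limma adjusted p = 0.0107), H2-Aa 7.57 in deficient and 7.92 in control monocytes (adjusted p = 0.495) and Cd74 8.23 in deficient and 8.78 in control monocytes (adjusted p = 0.248). The mean over 4 of 4 eosinophil markers was 4.28 to 4.76 in deficient and 4.22 to 4.36 in control monocytes, with Epx and Ccr3 not above background, and the surface lectin Siglecf was higher in deficient monocytes by 1.10 (limma adjusted p = 0.00618). The mean over 4 of 4 mast cell and basophil markers was 3.25 to 4.27 in deficient and 3.28 to 3.51 in control monocytes, with Cpa3, Fcer1a and Ms4a2 not above background. In that list the basophil protease Mcpt8 differed by 1.41 in monocytes (limma adjusted p = 0.0646) and by 1.14 in neutrophils (adjusted p = 0.891), and Siglecf differed by 0.53 in neutrophils (adjusted p = 0.952). Of the tested B cell, T and NK cell and erythroid markers, the smallest adjusted p in monocytes was 0.631 (Cd3g). As log2 of the summed level, the neutrophil list ran from 14.46 to 14.89 in deficient and from 12.2 to 13.98 in control monocytes, and the promyelocyte list from 11.57 to 13.59 in deficient and from 8.99 to 11.75 in control monocytes. The monocyte list summed to 12.18 to 13.46 in deficient and 13.44 to 13.66 in control monocytes, and the macrophage list to 8.86 to 9.53 in deficient and 8.77 to 9.15 in control monocytes. In neutrophils the neutrophil list averaged 12.26 to 12.36 in deficient and 12.33 to 12.4 in control arrays, and the promyelocyte list 4.77 to 6.50 in deficient and 4.76 to 5.1 in control arrays. The part of these shifts in the lectin values was not tested beyond the values given beside them, and in sorted populations fewer cells of a type and less RNA per cell cannot be told apart. Zeb2 itself read 9.75, 9.84, 9.46 and 8.74 in deficient and 10.08, 9.88, 9.88 and 9.86 in control monocytes, and 7.72, 7.10, 7.85 and 8.25 in deficient and 7.19, 6.86, 7.54 and 7.40 in control neutrophils. The neutrophil values run against the label, and the probe set summarises the whole transcript, so it does not check the deletion. Neither difference was called, at -0.48 ± 0.24 in monocytes (SE, limma adjusted p = 0.272) and 0.49 ± 0.24 in neutrophils (adjusted p = 0.972).

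**Figure D1:**
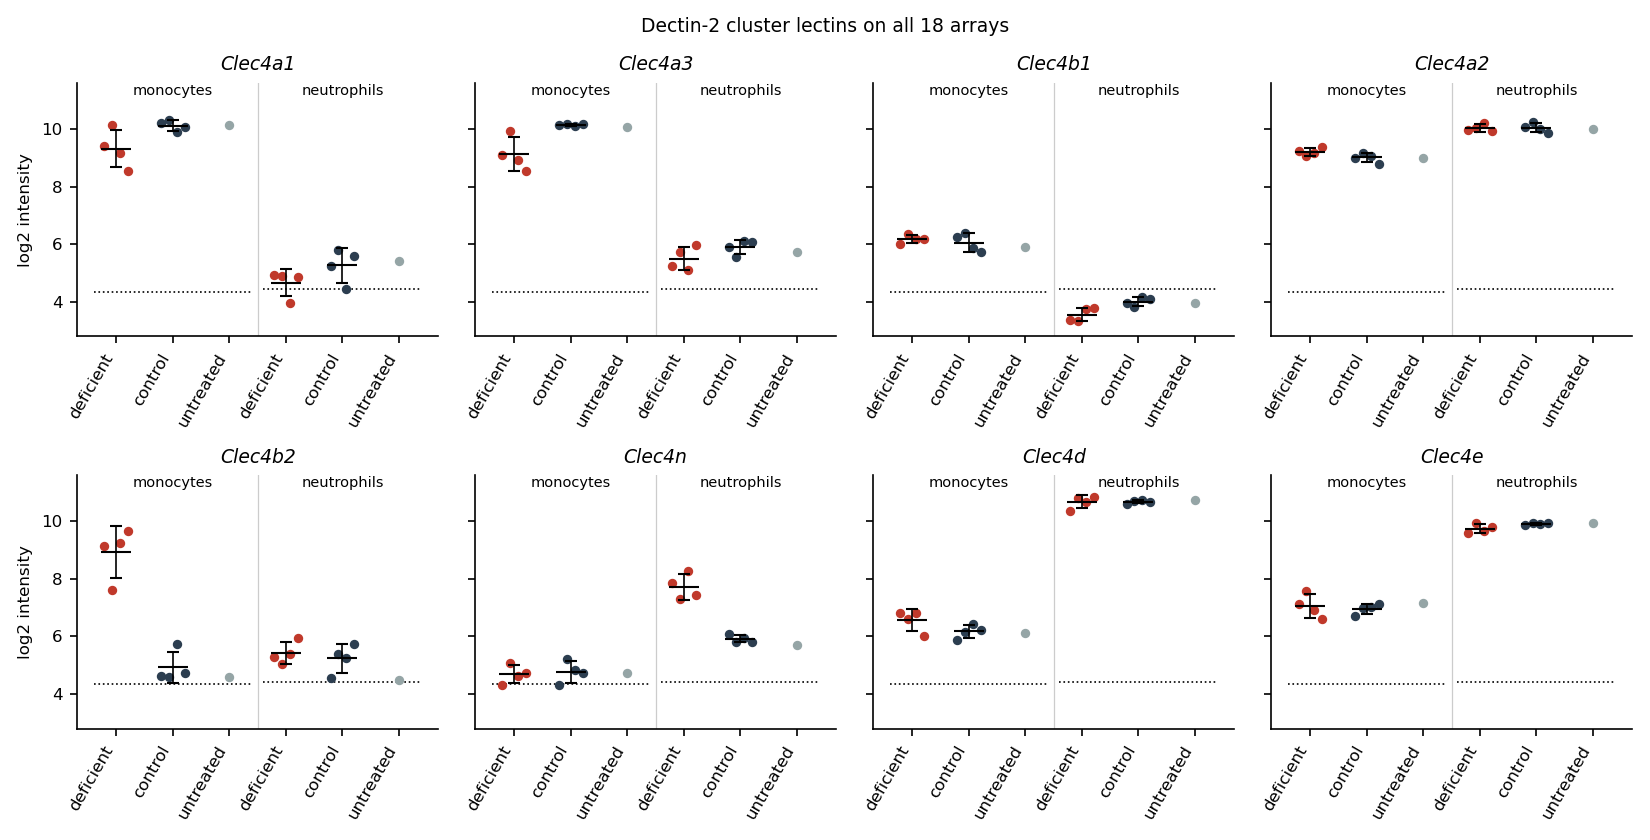
Log2 intensity (y axis) of the 8 lectins on every array, as points, with bars for the mean and SD of the groups of 4. Dotted lines are the mean 40th percentile of the arrays of that cell type. Clec4b2 was high in deficient monocytes alone and Clec4n was highest in deficient neutrophils, while Clec4d and Clec4e were high in both neutrophil groups and Clec4a1 and Clec4a3 in both monocyte groups.

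Poly(I:C)-treated control monocytes were set against control neutrophils to place each lectin in the sorted populations. Among these controls, 4 arrays of each cell type, the cluster was divided between the cell types, with 2 members called higher in monocytes (Clec4a1 and Clec4a3), 4 called higher in neutrophils (Clec4a2, Clec4n, Clec4d and Clec4e) and Clec4b2 not called. Clec4b1 is given without a test, because it entered the fit through the monocyte arrays on which it is high. Of all genes tested, 29.9% were called higher and 28.7% lower in monocytes. The differences of the 7 members other than Clec4b1, monocytes minus neutrophils, ran from -4.50 to 4.85 with a median of -1.02, beside a median of -0.077 over all genes. Arrays of the 2 cell types did not overlap for 6 of these 7, against 56.2% of all genes.

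Clec4a1 was higher in control monocytes by 4.85 ± 0.31 (SE, limma adjusted p = 3.38e-10), with 4 monocyte arrays at 9.90 to 10.3 and 4 neutrophil arrays at 4.44 to 5.81. Clec4a3 was higher by 4.25 ± 0.24 (adjusted p = 6.39e-11), with 10.12 to 10.19 in monocytes and 5.55 to 6.10 in neutrophils. Clec4b1 read 5.71 to 6.4 on the monocyte arrays and 3.81 to 4.15 on the neutrophil arrays, and since all 4 neutrophil values lay below background it was at least 3.1-fold higher in monocytes. So 2 of the monocyte-high genes sit side by side at one end of the run and the third lies beyond Clec4a4. Clec4a4, a Dcir relative that was not tested, stayed below background on all 18 arrays, at 2.95 to 3.21 in deficient and 3.40 to 4.07 in control monocytes and at 2.58 to 3.13 in deficient and 3.02 to 3.25 in control neutrophils.

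At the other end of the run, Clec4d was lower in control monocytes than in control neutrophils (limma difference -4.50 ± 0.17 SE, adjusted p = 3.86e-13). Its control arrays read 5.88 to 6.45 in monocytes and 10.61 to 10.74 in neutrophils. Clec4e, which with Clec4d forms a receptor for mycobacterial cord factor, differed by -2.94 ± 0.16 (SE, limma adjusted p = 4.63e-11), with 6.73 to 7.14 in monocytes and 9.87 to 9.94 in neutrophils. Clec4n differed by -1.15 ± 0.21 (SE, limma adjusted p = 0.000163), and Clec4a2, the inhibitory Dcir, by -1.03 ± 0.11 (SE, limma adjusted p = 4.18e-07). Clec4b2 differed by -0.31 ± 0.37 (SE, limma adjusted p = 0.473) and its control arrays overlapped. The inhibitory and the activating receptors were thus on the same side, higher in neutrophils, apart from Clec4b1 and Clec4b2.

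The genotype comparison asks what the labelled deletion of Zeb2 changes in each cell type, and in monocytes the cluster had 2 members beyond the spread of the arrays, Clec4b2 upward and Clec4a3 downward. The same model called 1 member higher and 1 lower, where 5.11% of all genes were called higher and 2.44% lower, and arrays did not overlap for 2 members, where they did not for 10.0% of all genes. The members' changes, deficient minus control, ran from -1.02 to 3.99 with a median of 0.109, beside -0.0337 over all genes. Because the members were chosen with these changes known, the counts carry no weight as a test.

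Clec4b2, a Dcar-type receptor with no call between the control cell types (probe set 10541599), read 9.13, 7.61, 9.26 and 9.68 in deficient monocytes, against 4.64, 4.60, 5.75 and 4.75 in control monocytes. Every deficient array lay above every control array, and deficient replicate 2 was the lowest of its group. The means were 8.92 ± 0.90 in deficient and 4.93 ± 0.55 in control monocytes (SD, n = 4 each), a change of 3.99 ± 0.37 (SE) or 15.9-fold in intensity, place 7 from the top of the 13387 genes. Control replicates 1, 2 and 5 read a little above their arrays' 40th percentiles of 4.37, 4.30 and 4.37. The fold thus rests on control values near background. In neutrophils Clec4b2 read 5.30, 5.06, 5.40 and 5.95 in deficient and 4.57, 5.40, 5.25 and 5.75 in control arrays. These neutrophil groups overlapped, with a change of 0.19 ± 0.37 (SE). The order of means was deficient monocytes, deficient neutrophils, control neutrophils and control monocytes, and only the step below deficient monocytes exceeded the spread. The lowest deficient monocyte array, at 7.61, was also above the highest neutrophil array of either genotype, at 5.95.

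Clec4b1 (probe set 10541581), a near relative that lies beyond Clec4a2 in the run, overlapped between the monocyte groups. It read 6.01, 6.35, 6.20 and 6.18 in deficient monocytes, against 6.26, 6.40, 5.86 and 5.71 in control monocytes (change 0.13 ± 0.15 SE). In neutrophils it read 3.38, 3.34, 3.74 and 3.77 in deficient arrays, against 3.97, 3.81, 4.15 and 4.09 in control arrays. The deficient neutrophil arrays all read lower, but all 8 values lay below background, so no change is given. Both monocyte groups were above both neutrophil groups and did not differ beyond their spread.

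Clec4a3 (probe set 10541564), a Dcir relative, read 9.11, 9.94, 8.93 and 8.54 in deficient monocytes, against 10.13, 10.19, 10.12 and 10.16 in control monocytes. The deficient arrays spanned 1.40 and the control arrays 0.064, and every deficient array lay below every control array. The means were 9.13 ± 0.59 in deficient and 10.15 ± 0.03 in control monocytes (SD, n = 4 each), a change of -1.02 ± 0.24 (SE). In neutrophils Clec4a3 read 5.24, 5.72, 5.09 and 5.96 in deficient and 5.89, 5.55, 6.10 and 6.06 in control arrays, which overlapped (change -0.40 ± 0.24 SE). The order of means was control monocytes, deficient monocytes, control neutrophils and deficient neutrophils, with the neutrophil groups within their spread. The monocyte change was -0.63 in set A alone and -1.40 in set B.

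Clec4a1 (probe set 10541555), next to Clec4a3 in the run, read 9.43, 10.13, 9.16 and 8.56 in deficient monocytes, against 10.22, 10.30, 9.90 and 10.07 in control monocytes. Here 1 deficient array, replicate 2, fell within the control range and the other 3 below it. The change was -0.80 ± 0.31 (SE) with all arrays, -1.08 without deficient replicate 2 and -0.55 without deficient replicate 4. In neutrophils Clec4a1 read 4.94, 4.89, 3.97 and 4.88 in deficient and 5.25, 5.81, 4.44 and 5.59 in control arrays, 1 value of each group below background, and the groups overlapped (change -0.60 ± 0.31 SE). The order of means was the same as for Clec4a3. Clec4a2, the third Dcir-type gene, lay apart from both.

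Clec4a2 (probe set 10541587) read 9.25, 9.05, 9.16 and 9.37 in deficient monocytes, against 9.01, 9.18, 9.08 and 8.80 in control monocytes, with overlap (change 0.19 ± 0.11 SE). In neutrophils it read 9.96, 10.02, 10.22 and 9.93 in deficient and 10.08, 10.23, 10.00 and 9.85 in control arrays. These also overlapped, and the change was -0.0085 ± 0.113 (SE). The order of means was control neutrophils, deficient neutrophils, deficient monocytes and control monocytes, with each genotype pair within its spread.

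**Figure D2:**
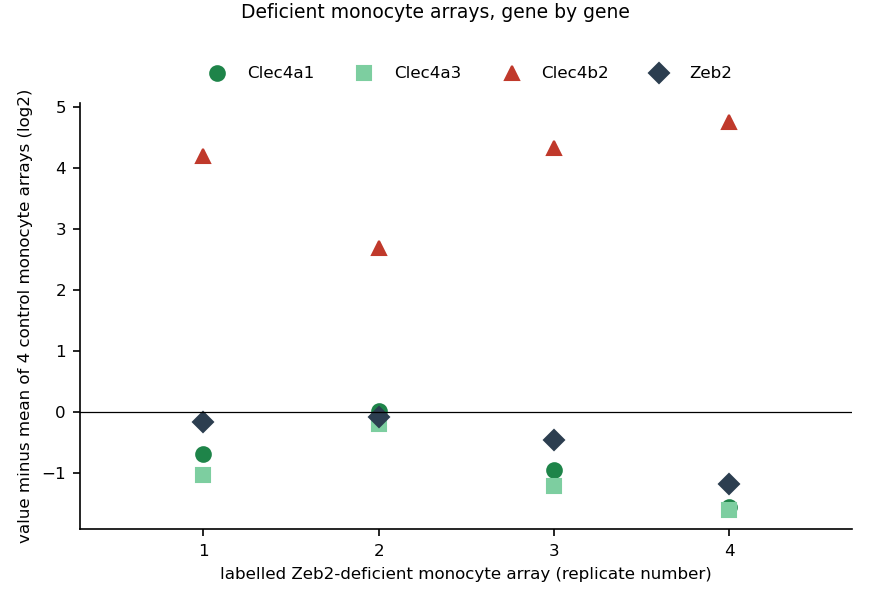
Value on each deficient monocyte array minus the mean of the 4 control monocyte arrays (y axis, log2), by replicate number (x axis), for Clec4a1, Clec4a3, Clec4b2 and Zeb2. Replicate 2 was nearest to the controls for all 4 genes and replicate 4 farthest.

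Among the 4 deficient monocyte arrays, Clec4a1, Clec4a3 and Zeb2 had the same order from high to low, replicates 2, 1, 3 and 4, and Clec4b2 had the reverse order. Replicate 2 also had the highest Ly-6C(hi) monocyte marker mean (10.57) and the lowest neutrophil (10.15) and promyelocyte (8.87) marker means of the 4, and replicate 4 the lowest monocyte (9.32) and highest promyelocyte (11.16) means. The Ly-6C(hi) monocyte means had the order of Clec4a1, with 10.57, 9.82, 9.81 and 9.32 on replicates 2, 1, 3 and 4. The promyelocyte means had the order of Clec4b2, with 11.16, 10.91, 10.49 and 8.87 on replicates 4, 3, 1 and 2. The neutrophil marker means had neither order, with 11.01 on replicate 1, 10.77 on replicate 3, 10.6 on replicate 4 and 10.15 on replicate 2. Over the deviations from group means of 8 treated monocyte arrays, Pearson's r was 0.958 between Clec4a1 and Clec4a3, -0.902 between Clec4a1 and Clec4b2, -0.861 between Clec4a3 and Clec4b2 and 0.88 between Clec4a1 and Zeb2. These arrays share their array sets and marker shifts, so the coefficients describe these arrays. In control monocytes Clec4b2 ran from high to low in replicates 4, 5, 1 and 2, as did the neutrophil and promyelocyte marker means. Clec4a1 and the Ly-6C(hi) monocyte marker mean had the reverse order, and Clec4a3 and Zeb2 had neither order. Control monocyte replicate 4 had the highest Clec4b2 (5.75), the lowest Clec4a1 (9.90) and the highest neutrophil (8.8) and promyelocyte (9.05) marker means. Zeb2 read 9.88 on that array, and its lowest control monocyte value, 9.86, was on replicate 5. In 8 neutrophil arrays r was 0.046 between Clec4a1 and Clec4a3.

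In neutrophils Clec4n was the member that stood out. This receptor for fungal mannans, the Dectin-2 that names the cluster (probe set 10541605), read 7.86, 7.32, 8.29 and 7.43 in deficient neutrophils, against 6.09, 5.82, 5.96 and 5.83 in control neutrophils. Every deficient array lay above every control array. The means were 7.72 ± 0.44 in deficient and 5.92 ± 0.13 in control neutrophils (SD, n = 4 each), a change of 1.80 ± 0.21 (SE) or 3.48-fold in intensity. In monocytes Clec4n read 4.31, 5.08, 4.64 and 4.73 in deficient and 4.30, 5.23, 4.85 and 4.72 in control arrays, 1 value of each group below background. These groups overlapped, with a change of -0.09 ± 0.21 (SE). The order of means was deficient neutrophils, control neutrophils, control monocytes and deficient monocytes, with the monocyte groups within their spread.

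The model called 1 member higher and 0 lower in deficient neutrophils, where 0.105% of all genes (14) were called higher and 0.0149% (2) lower, and Clec4n was place 3 by size among all genes in either direction. Of the 7 members other than Clec4b1, arrays did not overlap for 1, Clec4n, where they did not for 3.43% of all genes. The changes of these 7 ran from -0.60 to 1.80 with a median of -0.00851, beside -0.00988 over all genes. Within the array sets the Clec4n change was 1.63 in A and 1.97 in B. Clec4n was highest on deficient replicate 3 (8.29), while the promyelocyte mean of deficient neutrophils was highest on replicate 4 (6.50), where Clec4n was 7.43. The order of Clec4n over the 4 arrays (replicates 3, 1, 4 and 2) differed from that of the promyelocyte markers (replicates 4, 3, 1 and 2).

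Clec4d and Clec4e, neighbours at one end of the run, overlapped between genotypes in both cell types. Clec4d (probe set 10541614) read 10.37, 10.82, 10.68 and 10.86 in deficient neutrophils, against 10.61, 10.69, 10.74 and 10.68 in control neutrophils (change 0.0031 ± 0.166 SE). Clec4e (probe set 10547664) read 9.60, 9.93, 9.66 and 9.80 in deficient neutrophils, against 9.87, 9.94, 9.90 and 9.93 in control neutrophils (change -0.16 ± 0.16 SE). The deficient arrays were more spread than the control arrays (SD 0.222 in deficient and 0.0507 in control neutrophils for Clec4d, and 0.149 in deficient and 0.0317 in control neutrophils for Clec4e).

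In monocytes Clec4d read 6.82, 6.62, 6.83 and 6.03 in deficient arrays, against 5.88, 6.15, 6.45 and 6.24 in control arrays, with 3 of 4 deficient arrays above the control range and replicate 4 inside it. The change was 0.39 ± 0.17 (SE) with all arrays and 0.57 without deficient replicate 4. Leaving out 1 array at a time, it ran from 0.29 to 0.57. Clec4e read 7.12, 7.59, 6.93 and 6.61 in deficient monocytes, against 6.73, 6.99, 7.03 and 7.14 in control monocytes, and the change was 0.09 ± 0.16 (SE). Within the sets the monocyte change was 0.70 in A and 0.08 in B for Clec4d, and 0.50 in A and -0.31 in B for Clec4e, so the sign for Clec4e differed between sets. For both genes the neutrophil means were above the monocyte means, with each genotype pair within its spread.

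**Figure D3:**
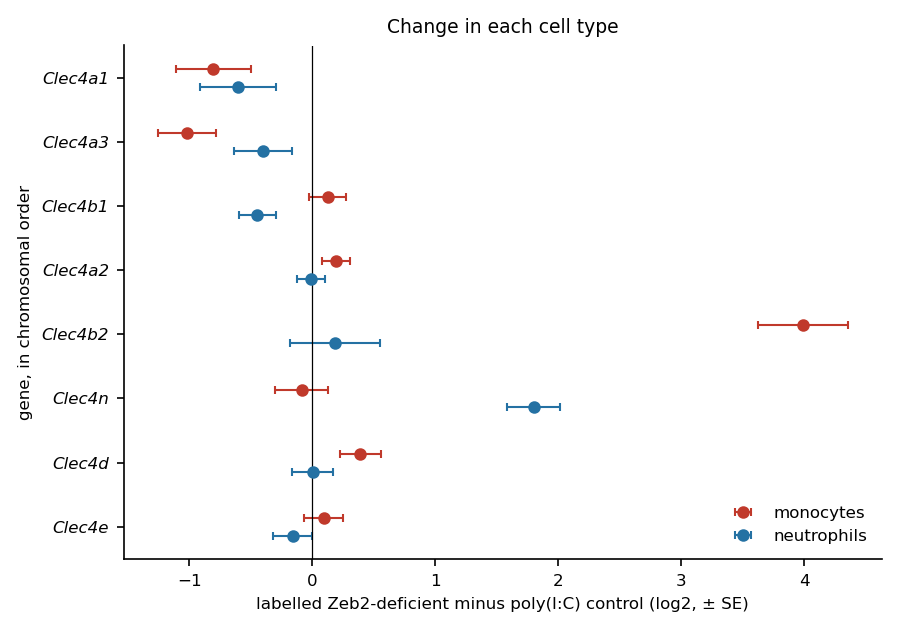
Change in log2 intensity, deficient minus control (x axis, points with SE bars from the model), of the 8 lectins in chromosomal order (y axis) in monocytes and in neutrophils. Clec4b2 stands apart in monocytes (3.99) and Clec4n in neutrophils (1.80), while both changes of Clec4a1 and of Clec4a3 are negative. The neutrophil point of Clec4b1 rests on values that all lie below background.

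The monocyte change minus the neutrophil change was 3.80 ± 0.52 (SE) for Clec4b2 and -1.89 ± 0.30 (SE) for Clec4n. Single members that respond differently in each cell type are what the choice of genes was based on, so these values describe that choice. For the other members the difference ran from -0.62 (Clec4a3) to 0.39 (Clec4d), and none is given for Clec4b1, whose neutrophil values all lay below background. Of all genes, 2.17% were called with a higher and 0.515% with a lower change in monocytes, 359 in all. The fit with a replicate block called 223, and there the control replicate 5 and deficient replicate 3 of each cell type have no partner and do not enter the change. In gene order Clec4b2 and Clec4n are direct neighbours.

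The 4 members high in control neutrophils had small differences in deficient monocytes beside that cell type difference, while neutrophil markers were much higher there than in control monocytes. As a share of the difference between control neutrophils and control monocytes (log2 scale), the change in deficient monocytes was 18.8% for Clec4a2, 8.7% for Clec4d, 3.14% for Clec4e and -7.48% for Clec4n. For 9 neutrophil markers the share ran from 30.0% for Mmp8 to 90.7% for S100a9, with a median of 77.3%. It was 65.3% for Ly6g, which lay above background on 1 of 4 control monocyte arrays, so that its share rests on a value near background. Mmp9, Cxcr2 and Clec4n each lay above background on 3 of these 4 arrays. For the 6 markers above background on all 4 the share ran from 30.0 to 90.7% with a median of 86.25%. The 4 lectins lay below the lowest marker, but the control differences behind these shares were unlike. They were 1.03 for Clec4a2, 1.15 for Clec4n, 2.94 for Clec4e and 4.50 for Clec4d. For the markers they ran from 1.35 (S100a8) to 7.94 (Ly6g). A share on the log2 scale depends on that difference, so shares of different genes are not strictly comparable. For the monocyte-high genes the share toward the neutrophil level was 16.6% for Clec4a1, with 1 of 4 control neutrophil values below background, and 23.9% for Clec4a3. No share is given for Clec4b1, whose neutrophil level is only a bound. Clec4b2, with 8.92 in deficient monocytes, was above its level in control neutrophils (5.24), so no share is given. These shares are descriptions, since the members were chosen with the monocyte changes known.

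**Figure D4:**
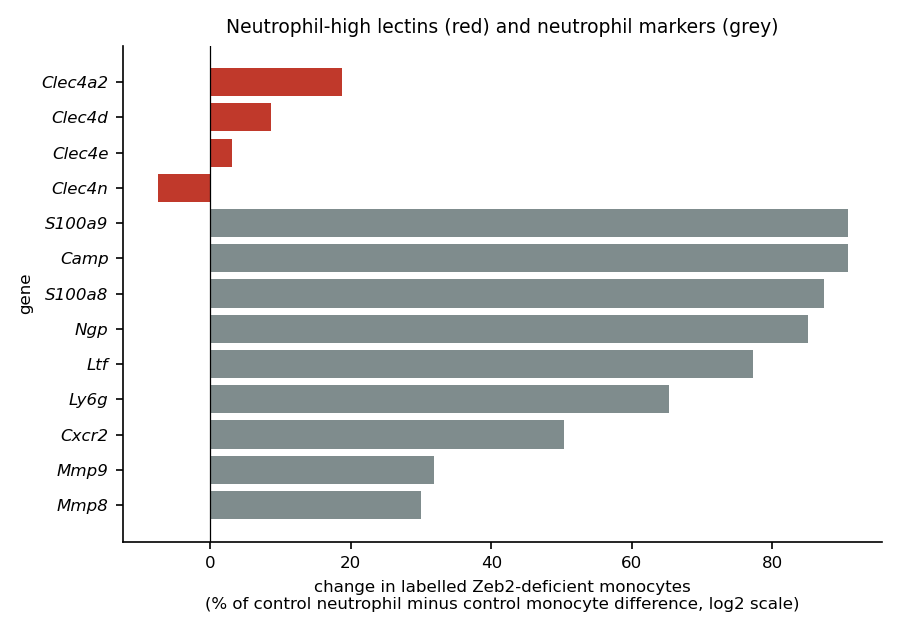
Change in deficient monocytes as a percent of the control neutrophil minus control monocyte difference (x axis, log2 scale) for the 4 neutrophil-high lectins and 9 neutrophil markers (y axis). The lectins lie at -7.48 to 18.8% and the markers at 30.0 to 90.7%. The difference that each bar is a share of is unlike between genes, so the bars are not strictly comparable. The bar of Ly6g rests on a control monocyte level above background on 1 of 4 arrays.

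Poly(I:C) was compared with no treatment through the single untreated control array of each cell type, which has no replicate. In monocytes the untreated array lay inside the range of the 4 treated controls for 6 of 8 members, and the differences, untreated minus treated, ran from -0.33 (Clec4b2) to 0.20 (Clec4e). In neutrophils it lay inside for 4 of 8, with differences from -0.74 (Clec4b2) to 0.16 (Clec4a1). Clec4b2 averaged 5.24 ± 0.50 in treated control neutrophils (SD, n = 4) and read 4.50 in the untreated array, just below the lowest treated value of 4.57. Clec4n averaged 5.92 ± 0.13 in treated control neutrophils (SD, n = 4) and read 5.69 in the untreated array.

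The signalling genes downstream of these receptors were measured as lists chosen with earlier results of these data known. Of 19 genes of activating receptor signalling, 16 were tested. Their counts in deficient monocytes stand beside 5.11% of all genes called higher and 2.44% lower. Those in deficient neutrophils stand beside 0.105% of all genes called higher and 0.0149% lower. Here and for the lists below, the share of all genes at an unadjusted p under 0.05 is not given. Counts at that threshold therefore have no share to be set against. In deficient monocytes 0 rose and 1 fell (0 and 6 at an unadjusted limma p under 0.05), the adaptor Lat2, which averaged 7.05 ± 0.41 in deficient and 7.66 ± 0.12 in control monocytes (SD, n = 4 each, change -0.61 ± 0.18 SE, limma adjusted p = 0.0455). That call was lost in 16 of 26 alternatives, among them the replicate block (-0.47, adjusted p = 0.0888), and without deficient monocyte replicate 2 there were 7 calls in the list. In deficient neutrophils 0 of 16 passed, and 0 at an unadjusted p under 0.05, the 2 smallest p-values being those of Bcl10 (-0.39, limma adjusted p = 0.989) and Lat2 (0.30, adjusted p = 0.999). The list's median change was -0.238 in monocytes and -0.0279 in neutrophils, beside -0.0337 in monocytes and -0.00988 in neutrophils over all genes. Between control cell types 3 were higher and 7 lower in monocytes, beside 29.9% of all genes called higher and 28.7% lower. Monocytes minus neutrophils, Lat2 differed by 2.24 ± 0.18 (SE, limma adjusted p = 6.61e-09). The kinase Fgr differed by -0.90, the exchange factor Vav3 by -0.85 and the paracaspase Malt1, which works with Card9, by 0.79.

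Of 8 genes of inhibitory receptor signalling, all tested, 0 rose and 2 fell in deficient monocytes by limma (1 and 2 at an unadjusted p under 0.05). Over all genes 5.11% were called higher and 2.44% lower. The inhibitory receptor Pirb averaged 9.29 ± 0.37 in deficient and 9.96 ± 0.21 in control monocytes (SD, n = 4 each, change -0.68 ± 0.15 SE, limma adjusted p = 0.00863, and with the replicate block -0.60, adjusted p = 0.093). Lilrb4a changed by -0.60 ± 0.17 (SE, limma adjusted p = 0.0401), a call lost in 12 of 26 alternatives. In neutrophils 0 of 8 passed (1 at an unadjusted p under 0.05), and the smallest p was that of Siglece (-0.45, limma adjusted p = 0.968). Over all genes 0.105% were called higher and 0.0149% lower in deficient neutrophils. Between control cell types 0 were higher (also 0 at an unadjusted p under 0.05) and 4 lower in monocytes. Over all genes 29.9% were called higher and 28.7% lower in that comparison. The 4 were the sialic acid receptors Cd33 (-3.35, limma adjusted p = 6.25e-09) and Siglece (-2.92), Pirb (-0.99) and Lilrb4a (-0.68). The list's median was -0.171 in the monocyte change and -0.412 between the control cell types.

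Of 36 other C-type lectins of myeloid cells, 23 were tested, and in deficient monocytes 3 rose and 6 fell (5 and 8 at an unadjusted limma p under 0.05), beside 5.11% of all genes called higher and 2.44% lower. In array set A alone 2 of the 23 were called. The largest changes were those of Olr1, a receptor for oxidised LDL (1.94 ± 0.26 SE, limma adjusted p = 9.53e-05), Ly75, the endocytic receptor for antigens (1.62 ± 0.30 SE, limma adjusted p = 0.0023), Cd209a, a DC-SIGN relative (-1.49 ± 0.18 SE, limma adjusted p = 5.07e-05), and Mrc1, the mannose receptor (-1.35 ± 0.21 SE, limma adjusted p = 0.000445). Of these, Ly75 lay below background on 1 of 4 control and Mrc1 on 1 of 4 deficient monocyte arrays. Olr1 averaged 7.51 ± 0.72 in deficient and 5.57 ± 0.33 in control monocytes, and 7.17 ± 0.15 in deficient and 7.13 ± 0.19 in control neutrophils (SD, n = 4 each). Ly75 averaged 6.35 ± 0.67 in deficient and 4.72 ± 0.67 in control monocytes, and 8.06 ± 0.30 in deficient and 8.29 ± 0.13 in control neutrophils (SD, n = 4 each). In neutrophils 0 of 23 passed (1 at an unadjusted p under 0.05), with Mrc2 (-0.19, limma adjusted p = 0.952) and Cd93 (0.41, adjusted p = 0.972) nearest. Over all genes 0.105% were called higher and 0.0149% lower in deficient neutrophils. The list's median change was -0.0451 in monocytes.

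The change differed between the cell types for 5 of these 23 lectins, 3 with a higher and 2 with a lower change in monocytes. Over all genes 2.17% were called with a higher and 0.515% with a lower change in monocytes. Olr1 differed by 1.90 ± 0.36 (SE, limma adjusted p = 0.00609), Cd209a by -1.36 ± 0.26 (adjusted p = 0.00609), Ly75 by 1.86 ± 0.43 (adjusted p = 0.0224, and 0.0579 with the replicate block) and Cd302 by -1.38 ± 0.33 (adjusted p = 0.0296, and 0.113 with the replicate block). The call of Cd302 was lost in 13 of 26 alternatives and that of Ly75 in 5. The list had 11 such calls without deficient monocyte replicate 2, 3 with the replicate block and 0 in array set A alone. Between control cell types 8 were higher and 11 lower in monocytes, beside 29.9% of all genes called higher and 28.7% lower. Clec2i differed by 5.12 ± 0.24 (SE, limma adjusted p = 7.73e-12) and lay below background on 2 of 4 control neutrophil arrays. Ly75 differed by -3.56, with 1 of 4 control monocyte arrays below background, and Cd302 by 2.42. Klrb1f, counted among the 8, is given without a test, because it could pass the filter only with monocyte arrays, on which it is high. It was at least 9.9-fold higher in control monocytes, with 4 of 4 control neutrophil arrays below background.

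Of 18 cytokines and enzymes induced through these receptors, 11 were tested. In deficient monocytes 1 rose, Tnf, which averaged 6.94 ± 0.17 in deficient and 6.28 ± 0.37 in control monocytes (SD, n = 4 each, change 0.67 ± 0.18 SE, limma adjusted p = 0.0309, and 0.0625 with the replicate block). That call was lost in 8 of 26 alternatives. Of the list 0 fell (2 at an unadjusted limma p under 0.05). Over all genes 5.11% were called higher and 2.44% lower in deficient monocytes. In neutrophils 0 of 11 passed (3 at an unadjusted p under 0.05), with Ccl4 at 0.56 (limma adjusted p = 0.791) and Ptgs2 at 0.41 (adjusted p = 0.847). Over all genes 0.105% were called higher and 0.0149% lower in deficient neutrophils. Between control cell types 2 were higher and 7 lower in monocytes, beside 29.9% of all genes called higher and 28.7% lower. Il1b, an inflammatory cytokine, differed by -5.62 ± 0.23 (SE, limma adjusted p = 9.98e-13) and the prostaglandin synthase Ptgs2 by -5.13. The chemokine Cxcl2 differed by -4.53, with 1 of 4 monocyte arrays below background, and the monocyte chemoattractant Ccl2 by 3.04. The list's median was 0.0215 in the monocyte change, 0.149 in the neutrophil change and -0.546 between the control cell types.

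The genes that flank the lectins on chromosome 6 were followed as neighbours in gene order. Of 11 neighbours, 4 were tested, all on the Clec4a1 side. Slc2a3, a glucose transporter, averaged 7.10 ± 0.65 in deficient and 4.79 ± 0.20 in control monocytes (SD, n = 4 each, change 2.32 ± 0.22 SE, limma adjusted p = 3.96e-06), and its change differed between the cell types by 2.45 ± 0.32 (SE, limma adjusted p = 0.000282). In control cells Slc2a3 was lower in monocytes (-5.65, limma adjusted p = 7.42e-13), as Clec4d and Clec4e were. Foxj2 (-0.51, limma adjusted p = 0.0864), C3ar1 (-0.00095, adjusted p = 0.998) and Necap1 (-0.15, adjusted p = 0.748), which lie between Slc2a3 and the lectins, did not pass in monocytes. In neutrophils 0 of 4 passed by limma (0 at an unadjusted p under 0.05), where 0.105% of all genes were called higher and 0.0149% lower. C3ar1, the receptor of the anaphylatoxin C3a, was higher in control monocytes by 0.46 (limma adjusted p = 0.0207), with 1 of 4 control neutrophil arrays below background. That call was lost in 3 of 25 alternatives, without control monocyte replicate 2 (0.37, limma adjusted p = 0.0745), without control neutrophil replicate 5 (0.35, adjusted p = 0.0816) and in array set A alone (0.24, adjusted p = 0.421).

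For each member the other tested genes with the highest Pearson correlation over the 16 treated arrays were named, as a description over arrays that share cell types and genotypes. Clec4b2 was closest to Retnla (r = 0.9753), a secreted resistin-like protein, and to Chit1 (0.9695), a chitinase. Retnla averaged 8.44 in deficient monocytes and 3.02 in control monocytes, 3.96 in deficient neutrophils and 4.10 in control neutrophils, so it too was high in deficient monocytes alone. Those 3 lower means lay under the 40th percentiles of the arrays (4.28 to 4.5). So did those of Chit1, at 3.48 in control monocytes, 3.75 in deficient and 3.78 in control neutrophils. Both coefficients thus rest mainly on the deficient monocyte arrays. Clec4n was closest to Csf1 (0.9571), the macrophage growth factor, and Rragd (0.9474), a GTPase of nutrient sensing, both among the 14 genes called higher in deficient neutrophils. Csf1 averaged 7.94 in deficient and 6.46 in control neutrophils, and 4.76 in deficient and 4.95 in control monocytes. For the members that differed mainly by cell type the closest genes were Cct5 and Snx2 for Clec4a1 (0.9922 and 0.992), Ccl9 and Ldlrad3 for Clec4a3 (0.9923 and 0.9921), Cln6 and Aldh9a1 for Clec4b1 (0.9866 and 0.986), Phlda1 and Scaper for Clec4a2 (0.9745 and 0.9734) and Max and Braf for Clec4d (0.9964 and 0.9963). Clec4e was the only member closest to another member, Clec4d (0.9918), followed by Scyl2 (0.9917), and the deviations of Clec4d and Clec4e from their group means correlated at 0.611 over the 16 arrays.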

How the data were processed

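Total RNA of sorted cells was isolated (RNAqueous-Micro) and amplified for labelling (Ovation PicoSL), per the labels' protocols. The deposited values are log2 intensities per probe set made by the authors with RMA, per the submitters' processing notes, and its software version is not given in the sources used here. Arrays carry no read depth, and their number limits the precision. Genes were named through the platform annotation, in which 21789 of 30177 probe sets have 1 symbol, 1621 several and 6767 none. Each gene kept its probe set with the highest mean, and was tested if above the array's 40th percentile on at least 4 arrays. Probe sets of related lectins may share signal. limma 3.58.1 (R 4.3.3) fitted 6 group means over 18 arrays with an intensity-dependent variance and 12 residual df, two-sided, with Benjamini-Hochberg adjustment at 0.05. The fit was tested on simulated data. Untreated arrays entered no contrast. The members and lists were chosen with earlier results of these data known. All members were named, with up to 4 called genes of each list by size and up to 2 by p where none was called. Deviations of control and deficient arrays with the same title number correlated at 0.215 to 0.458 in 6 of 6 pairs. The number was used to pair them only in the alternative fits with a replicate block, and the main fit was unpaired. The 48 array pairs of different groups in the same array set, whatever their number, correlated at 0.038 to 0.458, so the correlation need not reflect the number, and the labels do not state a pairing. Alternatives covered normalization, filter, probe set choice, variance model, arrays fitted, array set, replicate number and each array left out. Promoters are RefSeq's.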

Additional observations from a re-analysis of the deposited data

Results flagged for a closer look

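Of 36 groups of 4 arrays examined for a single distant array (the 8 lectins and Zeb2 in each treated group), 3 held one, where chance gives about 1 in 20. Clec4a1 was lowest on deficient neutrophil replicate 3, at 3.97. Clec4b2 was highest among control monocytes on replicate 4, at 5.75, the array that also had the highest promyelocyte marker mean of its group (9.05). Zeb2 was highest among control monocytes on replicate 1, at 10.08.

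Several changes differed between the cell types. The monocyte change minus the neutrophil change was 3.80 for Clec4b2 and -1.89 for Clec4n, both given as descriptions because the genes were chosen for them. By the limma test of the difference itself it was 1.90 for Olr1 (adjusted p = 0.00609), 1.86 for Ly75 (adjusted p = 0.0224), -1.36 for Cd209a (adjusted p = 0.00609), -1.38 for Cd302 (adjusted p = 0.0296) and 2.45 for Slc2a3 (adjusted p = 0.000282). The cause of these differences was not tested.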

How the results depend on the processing

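In monocytes 1010 genes were called, 500 with only the arrays compared, 215 in array set A alone, 1724 in set B alone and 685 with the replicate block. In neutrophils 16 were called, 9 with only the arrays compared, 3 in set A and 11 with the replicate block. For the difference between the cell types 359 were called, 566 with the array set as a block, 72 in set A, 731 in set B and 223 with the replicate block. Between the control cell types 7846 were called, and 8332 with a replicate block shared by the cell types, an alternative chosen after seeing the data. Set A, with 2 arrays a group, called 1 member in monocytes, 0 in neutrophils and 1 for the difference, against 2, 1 and 2 with all arrays. Leaving out 1 array at a time gave 620 to 2001 calls in monocytes, 8 to 21 in neutrophils, 245 to 904 for the difference and 7034 to 7997 between control cell types, the highest 2001 and 904 both without deficient monocyte replicate 2. The lowest counts were those without deficient monocyte replicate 4 (620) or 3 (621), and without deficient neutrophil replicate 1 (8) or control neutrophil replicate 4 (9). Members called ran from 2 to 3 in monocytes, with 1 in neutrophils, 2 for the difference and, with Clec4b1 left out, 6 between control cell types throughout. For the genotype contrasts these member counts are descriptions.

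Of 832 recomputed member values 818 were counted as unchanged and 14 moved by more than 1 SD. For the genotype contrasts and their difference, unchanged meant a shift under 1 SD that kept any call's sign. For the control cell types it meant that sign and call stayed, so shifts over 1 SD were not counted there. The replicate block ended, among named genes that are no member, the calls of Lat2, Pirb and Tnf in monocytes and of Ly75 and Cd302 for the difference. The cause of these shifts was not tested. The values for Clec4b1 in neutrophils and Clec4a4 lie below background and limit what can be said of them.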
